A study of Mus musculus with 4 samples.

Results

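The potassium channel genes of mouse quadriceps were compared between WT and Mef2dα2 Eko mice. The genes were chosen by their symbol, which begins with Kcn followed by a letter and a number, and by their level, with at least 10 counts in total over the 4 libraries. Of 98 such symbols among the 51826 rows of the table, 65 reached 10 counts, 33 stayed below and 11 of those 33 were at 0 in every library. The selection used the total over both genotypes, so the levels are a description, while the rule did not use the difference between the genotypes. On the 2 sides of the limit, Kcna10 had 3 and 3 counts in WT mice and 0 and 4 in Mef2dα2 Eko mice, Kcnb2 had 0 and 1 against 4 and 6, Kcnj14 had 3 and 1 against 3 and 1, and Kcnk7 had 5 and 0 against 1 and 1. Kcna10 and Kcnb2 were therefore members with 10 and 11 counts, and Kcnj14 and Kcnk7 with 8 and 7 counts were not.

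MEF2D is a transcription factor of muscle, and its α2 exon is included mainly in striated muscle. Mef2dα2 Eko mice lack this exon through germline deletion with CRISPR-Cas9, in every tissue, and WT mice carry the intact gene. Both groups were sedentary male littermates of the C57BL6/J background at about 20 weeks of age, fed standard chow, and each mouse gave 1 polyA library of its quadriceps, with 2 mice in each group. The study used more than 1 founder line, and the line of these 4 mice was not given in the sources used here.

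Potassium channels let potassium leave or enter the muscle fibre and set how far its membrane sits from firing. Voltage-gated channels open on depolarization and end the action potential, and they are built from 4 alpha subunits around a pore, with auxiliary subunits on the inner or outer side. Some alpha subunits are silent, which means that they form no channel alone and change the properties of another voltage-gated channel when they join it. Inward rectifiers hold the resting potential, and those of the ATP-sensitive type open when the energy supply of the fibre runs low. Calcium-activated channels couple calcium release to the membrane, and 2-pore domain channels carry a steady leak.

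Total expected counts, the RSEM estimate of the reads from all genes, lay between 72626757 and 85176059 in the 4 libraries and overlapped between the genotypes. Levels are in CPM, each count scaled to its library total after TMM normalization, and 3 counts in a library corresponded to between 0.0348 and 0.0419 CPM, a floor that covers counting error only. The library of WT replicate 1 stood apart, with a chi-square statistic per degree of freedom of 130 to 235 against the other 3 libraries, which lay at 38.7 to 45.9 from each other. Its summed level of 5 adipocyte markers was 80.1 CPM, against 30.7 in WT replicate 2 and 25.8 and 11.2 in Mef2dα2 Eko mice. Cfd made up 48.5 CPM of that 80.1 CPM, and Lep, at 2.40 CPM there, was highest in Mef2dα2 Eko replicate 1, at 4.43 CPM. On this list edgeR called 0 genes, 3 of 5 had an unadjusted p below 0.05 and the median log2 fold change was -1.20. The 5 macrophage markers summed to 18.5 and 15.3 CPM in WT mice and 13.7 and 10.5 CPM in Mef2dα2 Eko mice, with a median log2 fold change of -0.48. Genes that mark the muscle fibre summed to between 112844 and 118486 CPM, most of it from Myh4. On that list Mb, the oxygen store of oxidative fibres, had 1430 and 1303 CPM in WT mice against 1050 and 884 CPM (log2 fold change -0.50), with an adjusted p of 0.156 in edgeR's quasi-likelihood test and of 0.000355 in DESeq2. The log2 fold changes of the others were -0.14 for Acta1, 0.003 for Ckm, 0.07 for Myh4, 0.11 for Tnnt3 and 0.14 for Pvalb. The median of the 6 genes was 0.04, and edgeR called 0 and gave 1 an unadjusted p below 0.05. Of the 3 brown adipocyte markers, Ucp1 was at 0 in all libraries, while Cidea had 40 and 55 counts in WT mice against 26 and 17 (log2 fold change -1.15) and was the only 1 tested. Mef2d itself had 19687 and 18393 counts in WT mice and 21695 and 17206 in Mef2dα2 Eko mice, which does not check the deletion, since 1 exon of the gene was removed. RNA from whole muscle cannot tell fewer cells of a type from less RNA per cell.

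Summed over the 65 members, the level was 869 and 822 CPM in WT mice and 833 and 852 CPM in Mef2dα2 Eko mice, so the ranges of the genotypes overlapped. The members differed widely in depth. Counts over the 4 libraries were above 1000 for 19 members, between 100 and 1000 for 19 and below 100 for 27. Levels of different genes were compared per kb of exon. The 3 members of highest level held 53.7% of the summed CPM per kb, the first 6 held 78.1%, the first 9 held 88.3% and the first 15 held 96.2%.

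Kcnj11, the pore of the ATP-sensitive channel, stood first at a mean of 42.9 CPM per kb over the 4 mice, and Kcna7, a voltage-gated channel of striated muscle, followed at 40.3 CPM per kb. Their ranges over the mice overlapped. Kcnj12, an inward rectifier of the resting membrane, had 23.8 CPM per kb, the silent subunit Kcng4 had 20.2 CPM per kb and Kcnc4, of the fast Shaw-related family, had 17.8 CPM per kb. The ranges of Kcnj12 and Kcng4 overlapped, as did those of Kcng4 and Kcnc4. Among the genes below them, Kcnc1 had 10.6, Kcnj2 had 7.86, Kcnn1 had 4.15, Kcnq5 had 2.75, Kcnj8 had 2.61, Kcna5 had 2.55 and Kcnf1 had 1.88 CPM per kb. Of these, Kcnc1, Kcnj2, Kcnn1 and Kcnq5 did not overlap in range with each other, and from Kcnq5 to Kcnf1 each gene overlapped with the next of those named. By class, voltage-gated alpha subunits (29 members) held 56.1% of the summed level per kb, inward rectifiers (9 members) 38.9% and calcium-activated channels with their beta subunits (8 members) 3.27%. The 9 auxiliary subunits held 0.886%, the 6 2-pore domain channels 0.641%, the 3 sodium-activated and sperm channels 0.0772%, and the noncoding RNA Kcnq1ot1 0.131%.

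**Figure D1:**
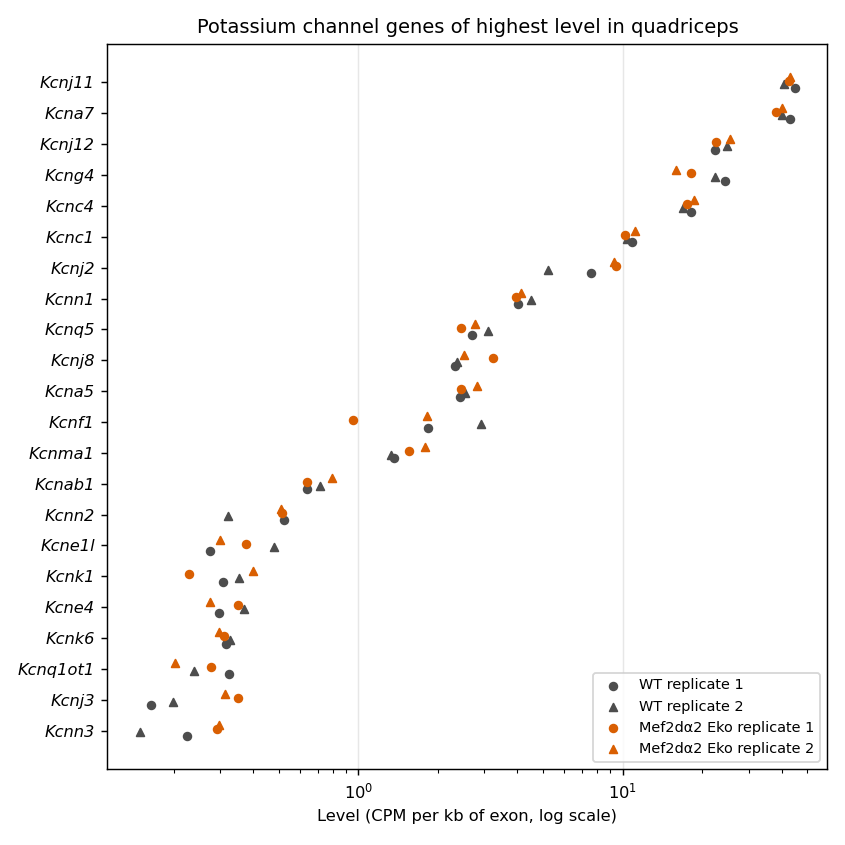
Level of 22 of the 25 potassium channel genes of highest level, in CPM per kb of exon on a log scale. Each point is 1 mouse, grey for WT and orange for Mef2dα2 Eko. Kcnj11 and Kcna7 lie at about the same place in all 4 mice, while the orange points of Kcng4 lie left of both grey points and those of Kcnj2 lie right of both.

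The study asked which genes of the muscle change when the α2 exon is lost. For the potassium channels, edgeR's quasi-likelihood test over 16120 genes, with Benjamini-Hochberg adjustment, called 0 of the 55 members that passed the filter on low counts, where it called 0.416% of all genes tested. DESeq2 called 4 members, 2 lower (Kcng4 among them) and 2 higher (Kcnj2 among them) in Mef2dα2 Eko mice, where it called 1.97% of all genes tested. At an unadjusted p below 0.05 edgeR listed 13 members, 8 higher and 5 lower, and 11.6% of all genes tested. That 11.6% is the share to set beside each count of a class or list at this cut. Both Mef2dα2 Eko mice lay above both WT mice for 15 of the 55 members (20.8% of all genes) and below both for 11 (23% of all genes), so these shares were near those of all genes. The log2 fold change was positive for 27 members and negative for 28, with a median of -0.01, against a median of -0.01 over all genes tested. A fit with 1 mouse left out has 1 mouse in a genotype and takes its spread from the other genotype alone, so only its log2 fold changes are given. The smallest p of an exact permutation test on groups of 2 and 2 (two-sided) is 0.333. These calls and their p-values therefore rest on the spread between these 4 mice, which each model shares among genes.

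**Figure D2:**
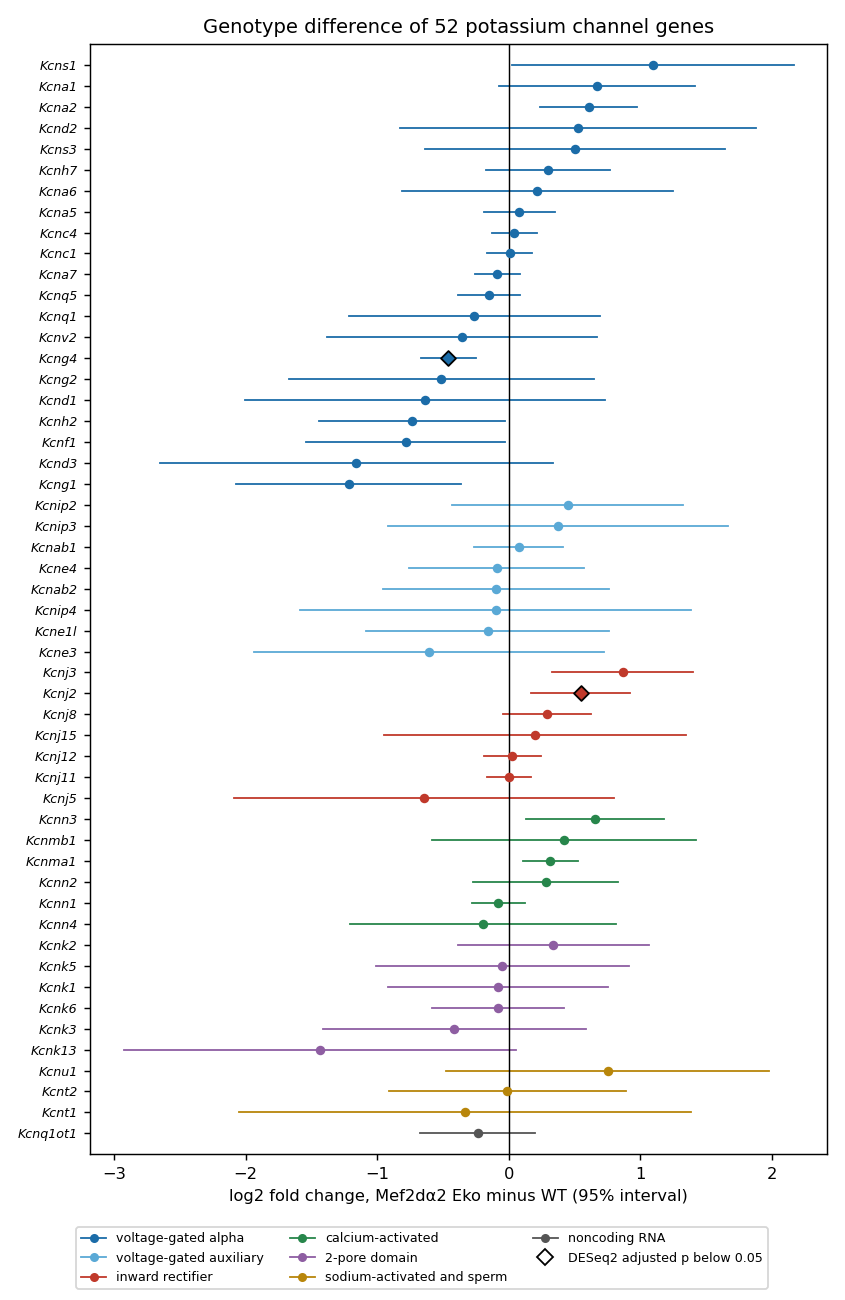
Log2 fold change of 52 of the 55 potassium channel genes tested, Mef2dα2 Eko minus WT, with 95% intervals derived from edgeR's F statistic, grouped and coloured by class. Diamonds mark the genes drawn that have a DESeq2 adjusted p below 0.05, of which Kcng4 lies left of 0 and Kcnj2 right of it, and most other intervals cross 0.

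The other 10 members did not pass the filter, with totals of 10 to 46 counts, and were not tested. They were the inward rectifiers Kcnj13 and Kcnj10, the voltage-gated alpha subunits Kcnc2, Kcna10, Kcnh1, Kcnq3 and Kcnb2, the auxiliary subunit Kcnab3 and the beta subunits Kcnmb2 and Kcnmb4 of the large calcium-activated channel. The fit with no filter on low counts called none of these 10 genes.

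Kcng4 (ENSMUSG00000045246.11, chr8:119623854-119635680, minus strand, GRCm38), a silent subunit that forms channels only with other alpha subunits, was the member of highest level among those that separated the genotypes. It had 93.3 and 85.03 CPM in WT mice and 69.1 and 60.6 CPM in Mef2dα2 Eko mice, or 89.2 ± 5.86 against 64.9 ± 6.03 CPM (SD, n = 2). Both Mef2dα2 Eko mice lay below both WT mice by more than the gap within either genotype. The log2 fold change was -0.46 ± 0.09 (SE), with an adjusted p of 0.13 in edgeR's quasi-likelihood test and of 0.0015 in DESeq2. Leaving out 1 mouse at a time gave log2 fold changes of -0.54 to -0.37. The value was -0.39 without WT replicate 1, -0.51 without WT replicate 2, -0.54 without Mef2dα2 Eko replicate 1 and -0.37 without Mef2dα2 Eko replicate 2.

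The 7 tested silent subunits (Kcnf1, Kcng1, Kcng2, Kcng4, Kcns1, Kcns3 and Kcnv2), a group drawn after the values were seen, summed to 26.8 and 25.6 CPM per kb in WT mice and 19.5 and 18.1 in Mef2dα2 Eko mice, and Kcng4 made up most of that sum. They did not all point the same way. Kcnf1, a silent subunit of its own family, had 8.79 and 14.0 CPM in WT mice against 4.58 and 8.71 CPM in Mef2dα2 Eko mice, giving a log2 fold change of -0.78 ± 0.32 (SE). The highest Mef2dα2 Eko value of Kcnf1 was just under the lowest WT value, and the adjusted p was 0.419 in edgeR's quasi-likelihood test. Its log2 fold change was -1.31 without Mef2dα2 Eko replicate 2. Without Mef2dα2 Eko replicate 1 the log2 fold change of Kcnf1 was -0.37. Kcng1, a relative of Kcng4 at low level, had 41 and 47 counts in WT mice against 21 and 17 in Mef2dα2 Eko mice (log2 fold change -1.21 ± 0.36, SE, edgeR adjusted p = 0.289). Kcns1 had the largest positive log2 fold change of the tested members, 1.09 ± 0.45 (SE), from 12 and 11 counts in WT mice against 29 and 21 in Mef2dα2 Eko mice, with an edgeR adjusted p of 0.422.

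**Figure D3:**
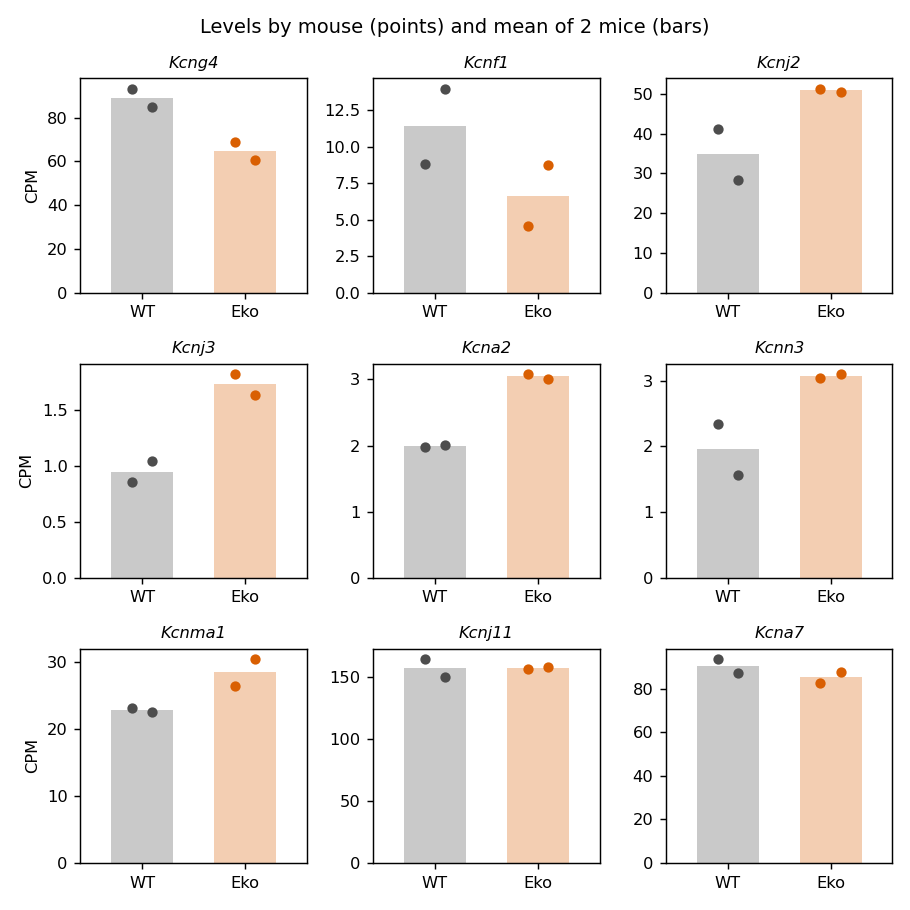
CPM of 9 potassium channel genes in each mouse, with points for mice and bars for the mean of the 2 mice of a genotype, grey for WT and orange for Mef2dα2 Eko. Each panel has its own axis from 0. The points of Kcng4 and Kcnf1 are lower in Mef2dα2 Eko mice, those of the 5 genes from Kcnj2 to Kcnma1 are higher, and those of Kcnj11 and Kcna7 overlap.

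Kcnq5, a channel of the KCNQ family that opens slowly near the resting potential, had 20.8 and 23.8 CPM in WT mice against 18.8 and 21.3 CPM, and its genotypes overlapped (log2 fold change -0.15, 95% interval -0.39 to 0.09).

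The myosin genes Myh1 and Myh2 also lay lower in Mef2dα2 Eko mice, like Kcng4, with no overlap of the genotypes. Myh2, the myosin of fast oxidative fibres, had 1576 and 1709 CPM in WT mice against 1264 and 1041 CPM in Mef2dα2 Eko mice, and Myh1, the myosin of intermediate fast fibres, had 4967 and 3984 against 3476 and 3121 CPM. Their log2 fold changes were -0.51 and -0.44, with adjusted p of 0.161 and 0.261 in edgeR's quasi-likelihood test and of 0.00045 and 0.0137 in DESeq2. Myh4, of the fastest fibres, had 64359 and 64361 CPM against 65461 and 69587 CPM (log2 fold change 0.07, edgeR adjusted p = 0.825). On the list of fast and slow fibre genes, Myh7 had 113 and 339 CPM in WT mice against 237 and 145 CPM (log2 fold change -0.24). Tnni1 had 5.73 and 16.7 against 15.1 and 7.76 CPM (log2 fold change 0.03), and Tnni2 had a log2 fold change of 0.0007. The genotypes overlapped for these genes. Of the 6 genes on that list, 0 were called by edgeR, 2 had an unadjusted p below 0.05 and the median log2 fold change was -0.12. Mb, given above, was lower in the same mice. The paper's fibre typing, in EDL and soleus muscles, found no significant genotype difference. The part of fibre composition in the values of Kcng4 was not tested.

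The genotypes overlapped for the voltage-gated channels Kcna7, Kcnc1, Kcnc4 and Kcna5. Kcna7 had 93.8 and 87.3 CPM in WT mice against 82.9 and 87.8 CPM, with a log2 fold change of -0.09 and a 95% interval of -0.26 to 0.08. For Kcnc1 the interval was -0.16 to 0.18 and for Kcnc4 it was -0.13 to 0.21. For Kcna5, a delayed rectifier also found in vessels, it was -0.19 to 0.35. A change of 1 log2 unit therefore lay outside the interval of each of these 4 genes. Kcnc1 and Kcnc4 kept nearly the same ratio per kb in all libraries, 0.599 and 0.612 in WT mice and 0.584 and 0.597 in Mef2dα2 Eko mice.

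Kcna2, a delayed rectifier best known from myelinated axons, had 1.98 and 2.02 CPM in WT mice and 3.09 and 3.01 CPM in Mef2dα2 Eko mice. Both Mef2dα2 Eko mice lay above both WT mice, as for 20.8% of all genes tested. The log2 fold change was 0.61 ± 0.16 (SE), with an edgeR adjusted p of 0.229 and a DESeq2 adjusted p of 0.21. Kcna1, its partner in axons and chosen after its values were seen, had 41 and 43 counts in WT mice against 61 and 72 in Mef2dα2 Eko mice (log2 fold change 0.67 ± 0.31, SE, and 0.40 to 0.92 with 1 mouse left out, edgeR adjusted p = 0.477). Cntnap2, which holds these channels beside the nodes of the axon, had 2.31 and 2.32 CPM in WT mice and 4.03 and 5.43 CPM in Mef2dα2 Eko mice. Its log2 fold change was 1.03 ± 0.18 (SE), with an adjusted p of 0.108 in edgeR's quasi-likelihood test and of 0.00165 in DESeq2. The 6 Schwann cell markers, from the cells that wrap axons, summed to 44.9 and 46.9 CPM in WT mice and 49.3 and 59.8 CPM in Mef2dα2 Eko mice. Of these 6 markers edgeR called 0 and 2 had an unadjusted p below 0.05, the median log2 fold change was 0.28, and none was at 0 in a library. Their part in the values of Kcna1, Kcna2 and Cntnap2 was not tested.

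At the low end of the voltage-gated class, Kcnh2, the rapid delayed rectifier of heart, had 95 and 72 counts in WT mice against 61 and 41 in Mef2dα2 Eko mice (log2 fold change -0.74 ± 0.30, SE, edgeR adjusted p = 0.419). Without WT replicate 1 its log2 fold change was -0.47, and without WT replicate 2 it was -0.95. Kcnd3, a transient outward channel, had 12 and 13 against 4 and 7 counts, and its log2 fold change of -1.16 had an interval of -2.65 to 0.33 and was -0.68 without Mef2dα2 Eko replicate 1 and -1.75 without Mef2dα2 Eko replicate 2. Over the 24 alpha subunits tested, 12 log2 fold changes were positive and 12 negative, with a median of -0.04. In edgeR 4 were higher and 5 lower at an unadjusted p below 0.05, a cut that 11.6% of all genes tested passed. For the auxiliary subunits, 8 of 9 were tested, 0 had an unadjusted p below 0.05, and their log2 fold changes ran from -0.61 to 0.45 with a median of -0.10. The auxiliary subunit of highest level, Kcnab1, chosen after its values were seen, had 5.50 and 6.12 CPM in WT mice against 5.47 and 6.80 CPM.

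Among the inward rectifiers, the genotypes were apart for Kcnj2 and overlapped for its relative Kcnj12. Kcnj2 (ENSMUSG00000041695.2, chr11:111066164-111076821, plus strand), which with Kcnj12 carries the inward rectifier current of the resting fibre, had 41.2 and 28.4 CPM in WT mice and 51.3 and 50.4 CPM in Mef2dα2 Eko mice. Both Mef2dα2 Eko mice lay above both WT mice (34.8 ± 9.08 against 50.8 ± 0.657 CPM, SD, n = 2), but the gap between WT mice was wider than that from the higher WT mouse to the lower Mef2dα2 Eko mouse. The log2 fold change was 0.55 ± 0.16 (SE), with an adjusted p of 0.28 in edgeR's quasi-likelihood test and of 0.0252 in DESeq2. Its size depended on the WT mouse, since it was 0.84 without WT replicate 1 and 0.32 without WT replicate 2. Kcnj12 had 61.4 and 68.5 CPM in WT mice against 62.0 and 70.3 CPM, and a 95% interval of -0.19 to 0.24 on the log2 scale. Per kb, Kcnj2 was 0.339 and 0.209 times the level of Kcnj12 in WT mice and 0.418 and 0.362 times in Mef2dα2 Eko mice. Kcnj12 and Kcnj2 together summed to 29.9 and 30.1 CPM per kb in WT mice and 32.0 and 34.8 in Mef2dα2 Eko mice, a pair and a sum drawn after the values were seen.

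**Figure D4:**
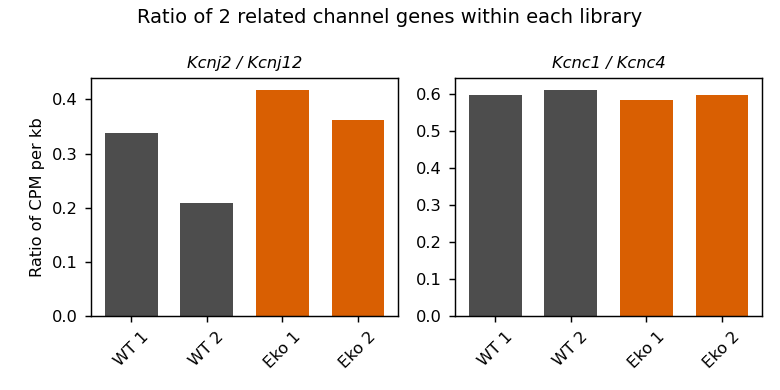
Ratio of the level per kb of exon of 2 pairs of related channel genes, 1 bar per library, grey for WT and orange for Mef2dα2 Eko. Kcnj2 to Kcnj12 is 0.339 and 0.209 in WT mice and 0.418 and 0.362 in Mef2dα2 Eko mice, while Kcnc1 to Kcnc4 stays between 0.584 and 0.612 in all 4 libraries.

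The genotypes overlapped for the pore of the ATP-sensitive channel. Kcnj11 (ENSMUSG00000096146.2, chr7:46093953-46100764, minus strand) had 165 and 151 CPM in WT mice and 157 and 159 CPM in Mef2dα2 Eko mice, with a log2 fold change of 0.00 and a 95% interval of -0.17 to 0.17. Kcnj8, the pore of this channel in vessels, had 5.93 and 6.02 CPM in WT mice against 8.20 and 6.42 CPM (log2 fold change 0.29 ± 0.14, SE, edgeR adjusted p = 0.488). Without Mef2dα2 Eko replicate 1 the log2 fold change of Kcnj8 was 0.12, and without Mef2dα2 Eko replicate 2 it was 0.46. Abcc9, the sulfonylurea receptor subunit, had 245 and 248 CPM in WT mice and 259 and 281 CPM in Mef2dα2 Eko mice (log2 fold change 0.13, edgeR adjusted p = 0.532). Kcnj3, a subunit of the G protein-gated channel of heart and brain, had 65 and 84 counts in WT mice and 157 and 117 in Mef2dα2 Eko mice. Its log2 fold change was 0.87 ± 0.23 (SE), the largest positive value among inward rectifiers, with an adjusted p of 0.237 in edgeR's quasi-likelihood test and of 0.192 in DESeq2. Of the 7 inward rectifiers tested, 6 log2 fold changes were positive and 1 was negative, with a median of 0.20, and 2 had an unadjusted p below 0.05 in edgeR (11.6% of all genes tested). Gm26794 overlaps Kcnj3 on the other strand and had 4, 0, 13 and 5 counts in WT replicates 1 and 2 and Mef2dα2 Eko replicates 1 and 2. The strand setting of the counting is not given in the sources used here, so reads shared between such genes could not be checked.

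Promoter sequences from RefSeq (GRCm38.p6, 250 bases before to 50 after each start) were at hand for 47 of the 65 members, with 64 promoters. Kcng4 and Kcnj2 are shown because they differed in opposite directions in DESeq2 and have an entry, and the capitals mark each match to CANNTG, the E-box that myogenic factors can bind, searched on both strands, where it reads the same.
Kcng4 promoter, chr8:119635631-119635930, minus strand: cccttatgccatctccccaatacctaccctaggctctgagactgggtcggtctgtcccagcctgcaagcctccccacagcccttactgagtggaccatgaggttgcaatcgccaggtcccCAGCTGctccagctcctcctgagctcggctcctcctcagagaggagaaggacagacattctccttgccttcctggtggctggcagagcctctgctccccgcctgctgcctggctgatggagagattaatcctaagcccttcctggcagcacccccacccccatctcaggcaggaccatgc
Kcnj2 promoter, chr11:111065914-111066213, plus strand: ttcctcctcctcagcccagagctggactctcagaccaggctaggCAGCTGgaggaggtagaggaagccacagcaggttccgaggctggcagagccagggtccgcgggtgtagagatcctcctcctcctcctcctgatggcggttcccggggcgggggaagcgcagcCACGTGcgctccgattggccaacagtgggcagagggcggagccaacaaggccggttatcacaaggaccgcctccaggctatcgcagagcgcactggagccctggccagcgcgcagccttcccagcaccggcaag
The Kcng4 promoter holds 1 such match, 130 bases before the start, and 4 CpG dinucleotides, and the Kcnj2 promoter holds 2 matches, 206 and 84 bases before the start, and 18 CpG dinucleotides. Of the 64 promoters of members, 50 (78.1%) hold the motif, against 72.3% of all 32851 promoters of this length. The MEF2 motif, searched by its consensus on both strands, was in 0 of the 64 promoters and in 3.19% of all promoters. A match is a run of letters and not a site of binding.

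Of the 6 calcium-activated channel genes tested, 3 were above both WT mice in both Mef2dα2 Eko mice, as were 20.8% of all genes tested. In edgeR 2 had an unadjusted p below 0.05, against 11.6% of all genes tested, and the median log2 fold change was 0.30. Kcnma1, the large-conductance channel of muscle and vessels, had 23.1 and 22.5 CPM in WT mice and 26.4 and 30.4 CPM in Mef2dα2 Eko mice (log2 fold change 0.32 ± 0.09, SE, edgeR adjusted p = 0.262, DESeq2 adjusted p = 0.151). Its beta subunit of smooth muscle, Kcnmb1, chosen after its values were seen, had 18 and 21 counts against 24 and 28, with a log2 fold change of 0.42 ± 0.42 (SE) that ran from 0.16 to 0.67 when 1 mouse was left out. The 6 markers of smooth muscle and pericytes summed to 299.5 and 286 CPM in WT mice and 315 and 352 CPM in Mef2dα2 Eko mice, with 0 of 6 called by edgeR, 3 of 6 at an unadjusted p below 0.05, a median log2 fold change of 0.18 and none at 0. Their part in the values of Kcnma1, Kcnmb1 and Kcnj8 was not tested. Lrrc38, an auxiliary subunit of the large-conductance channel, had 36.5 and 41.1 CPM in WT mice and 48.1 and 45.7 CPM in Mef2dα2 Eko mice (log2 fold change 0.28 ± 0.08, SE, edgeR adjusted p = 0.292), while Lrrc52, of the same family, had 74 and 105 counts against 52 and 57 (log2 fold change -0.70 ± 0.29, SE, edgeR adjusted p = 0.422).

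The small-conductance channels are opened by calcium alone and shape the pause after an action potential. Kcnn1, the member of this family with the highest level, had 18.5 and 20.6 CPM in WT mice and 18.2 and 18.9 CPM in Mef2dα2 Eko mice, and a 95% interval of -0.28 to 0.12 on the log2 scale. Kcnn3, which appears in fibres that have lost their nerve, had 178 and 126 counts in WT mice against 262 and 222 in Mef2dα2 Eko mice. Its log2 fold change was 0.66 ± 0.22 (SE), with an adjusted p of 0.336 in edgeR's quasi-likelihood test, and ran from 0.40 without WT replicate 2 to 0.98 without WT replicate 1. The list of 7 genes of denervated or regenerating fibres, 6 of them tested, had 0 genes called, 0 at an unadjusted p below 0.05, a median log2 fold change of -0.14, and sums of 30.7 and 28.2 CPM in WT mice against 27.8 and 31.8 CPM. The summed level of the 4 Kcnn members per kb, Kcnn4 of intermediate conductance included, was 4.83 and 5.03 in WT mice and 4.82 and 4.97 in Mef2dα2 Eko mice.

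For the 6 2-pore domain channels, 0 had an unadjusted p below 0.05, and the median log2 fold change was -0.08. Kcnk13, of the same class, had the lowest log2 fold change of the tested members, -1.44, with a 95% interval of -2.93 to 0.05, from 15 and 12 counts in WT mice and 7 and 3 in Mef2dα2 Eko mice. Kcnk3, an acid-sensitive leak channel chosen after its values were seen, had 107 counts in WT replicate 1 and 51 in WT replicate 2, against 77 and 45 in Mef2dα2 Eko mice. WT replicate 1 was the highest library for Kcnk3 as for the sum of the adipocyte markers, whose part in the value was not tested. The log2 fold change of Kcnk3 was -0.41 with all mice and 0.28 without WT replicate 1. Kcnu1, a channel of sperm, had 12 and 10 counts in WT mice and 25 and 13 in Mef2dα2 Eko mice, with a 95% interval of -0.47 to 1.97. Kcnq1ot1, chosen as the only noncoding member and outside the naming rule, is a long noncoding RNA that lies opposite Kcnq1 on chromosome 7 and represses neighbouring genes on the paternal copy. It had 30.2 and 22.2 CPM in WT mice and 25.7 and 18.8 CPM in Mef2dα2 Eko mice, and the genotypes overlapped. Kcnq1 on the opposite strand had 31 and 48 counts against 44 and 23, and was chosen after its values were seen.

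Genes whose products assemble with potassium channels, and the related HCN channels, were listed beside the members. Of 18 such genes, 13 were tested and edgeR called 0, with 3 at an unadjusted p below 0.05 (Cntnap2, Lrrc38 and Lrrc52) and a median log2 fold change of 0.11. DESeq2 called 1, Cntnap2. Of 24 genes for the sodium, chloride and calcium channels, the sodium pump and the acetylcholine receptor of the fibre membrane, all were tested and edgeR called 0, with 3 at an unadjusted p below 0.05 and a median log2 fold change of 0.09. Atp1b2, a beta subunit of the sodium pump, was the 1 gene that DESeq2 called on this list. It had 297 and 267 CPM in WT mice and 345 and 352 CPM in Mef2dα2 Eko mice, giving a log2 fold change of 0.30 ± 0.08 (SE), with an adjusted p of 0.226 in edgeR's quasi-likelihood test and of 0.0216 in DESeq2. Scn4a, the sodium channel of the action potential, had a log2 fold change of 0.24 and Clcn1, the chloride channel of the resting membrane, of 0.23, with edgeR adjusted p of 0.326 and 0.364.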

How the data were processed

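Quadriceps RNA of 2 WT and 2 Mef2dα2 Eko mice was sequenced from stranded polyA libraries. The authors aligned the reads to mm10 (STAR 2.6.1a in the submitters' processing notes) and estimated an expected count for each gene with RSEM and an Ensembl annotation of GRCm38. These expected counts were deposited without normalization, and all were whole numbers, so rounding them changed none. The strand setting of the counting is not given in the sources used here. Total counts of 72626757 to 85176059 per library set the precision.

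Genotypes were compared in R 4.3.3 with edgeR 4.0.16 (TMM, default filter on low counts, quasi-likelihood test, Benjamini-Hochberg adjustment over 16120 genes, threshold 0.05). Fold changes are log2, Mef2dα2 Eko minus WT, with a prior count of 0.125. The SE was derived as the absolute log2 fold change divided by the square root of edgeR's F statistic. The 95% intervals used this SE and a t distribution with the degrees of freedom of the fit. Levels per kb used exon lengths from GENCODE M21. The alternatives were DESeq2 1.42.0, limma-voom (limma 3.58.1), other normalizations, filters and tests, a GC correction, a replicate block and leaving out each mouse.

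Members and gene lists were chosen with earlier results of these data known. Named members were those called by edgeR or DESeq2, the 15 of highest level per kb, the 3 highest and 3 lowest log2 fold changes, those at an unadjusted p below 0.05, and the 2 nearest to the 10-count limit on each side. Genes outside this rule carry a remark, and 3 members that met it are included in the counts and not reported here.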

Additional observations from a re-analysis of the deposited data

How the results depend on the processing

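The count of potassium channel genes called was 0 by edgeR's quasi-likelihood test and stayed 0 with RLE or upper-quartile normalization, a filter that needs 1 CPM in 2 libraries, limma-voom and a GC correction. It was 4 with DESeq2, with or without independent filtering (Kcng4 and Kcnj2 among them), 3 with the likelihood ratio test (Kcng4 among them; 1.94% of all genes) and 8 with no filter on low counts, where 3.25% of 24621 genes were called. The cause was not tested. A fit with 1 mouse left out takes its spread from the other genotype alone, so its calls are not counted here. With the replicate block 3 members were called (Kcnf1 and Kcng4 among them), where 1.15% of all genes were called. The replicate numbers only name the mice, and the deviations of same-numbered mice correlated at 0.162. Partner genes called were 0 and became 1 with DESeq2 (both settings), no filter, the likelihood ratio test and the replicate block. Excitability genes called were 0 and became 1 with DESeq2 (both settings) and no filter. The median log2 fold change of the members was 0.073 with the 1 CPM filter, which left 25 members, and lay between -0.016 and 0.030 with 1 mouse left out. Of 344 log2 fold changes of the 25 members that met the naming rule, in other fits, 13 reversed, all for genes near 0. Kcna7 was 0.0090 and Kcnn1 0.0030 with the GC correction, and Kcnj11 was -0.0022 with upper-quartile normalization and -0.0020 with the 1 CPM filter. With 1 mouse left out, the log2 fold changes ran from -0.021 to 0.19 for Kcna5, -0.054 to 0.081 for Kcnc1, -0.0020 to 0.10 for Kcnc4, -0.048 to 0.069 for Kcnj11, -0.068 to 0.13 for Kcnj12 and -0.15 to 0.017 for Kcnn1. The log2 fold change had a rank correlation with GC percent of -0.36 over the tested members and -0.22 over the tested genes with a GC value. With the GC correction the log2 fold change was -0.38 for Kcng4 and 0.48 for Kcnj2. Members under 100 counts had wide intervals, and 2 mice in each genotype limit every comparison.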
